A study of Caenorhabditis elegans with 6 samples.

Results

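The fbxb and fbxc genes of Caenorhabditis elegans encode F-box proteins of 2 large paralogous classes. They were followed here across 6 single-colour Affymetrix arrays of whole adult animals. Members were taken as every gene with a symbol starting fbxb- or fbxc- that the platform annotation gave as the single gene of a probe set. This gave 139 genes, 95 fbxb and 44 fbxc, of 17118 named genes on the array. A gene with more than 1 such probe set was read from its brightest, by the mean of all 6 arrays. Each of the 6 groups was 1 array. The strains were N2, which is the wild type, daf-16(mu86), a mutant that lacks the FOXO transcription factor DAF-16, and as the third strain ser-3(ok2007);ser-6(tm2146), which lacks a pair of octopamine receptors and is called the double mutant here. The labels give N2 as the background of all 3 strains. Animals hatched from synchronised eggs were raised for 3 days and then spent 2 days on plates that held either no octopamine or 20 mg/mL. Octopamine is the invertebrate counterpart of noradrenaline. The extraction protocol calls the animals 5-day-old and the age label gives adult day 4. From its title, the study asked how octopamine relates to oxidative stress resistance and to DAF-16.

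F-box proteins are the substrate-binding subunits of SCF ubiquitin ligases. The F-box motif binds a Skp1-related linker, the linker binds a cullin, and the rest of the F-box protein selects the protein to be ubiquitinated. The family is strongly expanded in C. elegans, and the fbxa, fbxb and fbxc classes are told apart by the domain that follows the F-box motif. Many members lie next to their paralogues in the genome, and the substrates of most are not known.

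Most members gave weak signals. Signal here is the deposited linear intensity of a probe set. Tests were limited to genes with a geometric mean of at least 15.5, which is the 40th percentile over probe sets. Of the 139 members, 72 passed, 47 fbxb and 25 fbxc, and 67 did not. Mean signals of the tested members ran from 15.98 to 234, with a median of 36.5, against a median of 114 over all 10251 genes tested, and 66 of the 72 had a mean below 100. The 67 others had means from 4.91 to 15.4. At the low end fbxb-76 read between 4.39 and 5.42 over the 6 arrays, fbxb-112 between 4.94 and 5.56 and fbxb-55 between 5.21 and 6.10. At the high end fbxc-50 read between 151 and 315, fbxc-47 between 148 and 227, fbxc-52 between 105 and 234, fbxb-15 between 106 and 189 and fbxc-54 between 92.96 and 113. Probe sets differ in how strongly they bind, so these signals do not rank the genes by transcript level. Of the 139, 16 were read by a probe set whose suffix (_x or _s) marks probes that match several transcripts, 12 of them among the tested, and 12 are pseudogenes in the current gene table, 1 of them tested.

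The arrays were alike in scale, with median signals of 23.8 to 25.96, and the median of each array was subtracted on the log2 scale before any comparison. The ratios below therefore differ slightly from those of the deposited signals printed beside them. Of the 4 daf-16 probe sets, the one that differed most between the strains read 47.7 (untreated) and 43.4 (treated) in N2 animals, but 7.26 and 6.31 in the daf-16 strain. The brightest differed least, at 274 and 269 in N2 and 219 and 196 in the daf-16 strain. For ser-3 a single dim probe set read 17.7 to 30.8, and ser-6 had none under its name. As a measure of RNA integrity, the ubiquitin control's 3' over 5' signal lay at 5.32 to 5.48 untreated and at 5.74 to 6.23 treated, so it moved with octopamine, while the same ratio of actin and of GAPDH overlapped. Its part in the results was not tested. Among markers of tissues in whole animals, the summed signal of 12 embryo markers was 2134 to 2346 untreated and 1841 to 2038 treated, with 2 of 8 tested rising and 1 falling. That of 9 intestine markers was 35445 to 37056 untreated and 31600 to 34587 treated, with 1 of 9 rising and 2 falling. That of 8 neuron markers was 1524 to 1579 untreated and 1662 to 1735 treated, with 1 of 7 tested rising. A few bright genes carry these sums, pal-1 and lin-26 for embryo, the vitellogenin genes vit-2, vit-5 and vit-6 for intestine and snb-1 for neurons, and the embryo markers elt-7 and nhr-25 rose while pal-1 fell. The sums of muscle, hypodermis, germline and sperm markers overlapped between untreated and treated arrays, and no marker read 0. Within each of the 3 strains, however, the muscle and hypodermis sums were higher with octopamine and the germline and sperm sums lower. Of 8 muscle markers 1 rose, and of 6 tested hypodermis markers 2 rose and 1 fell. Of 12 germline markers 1 fell, and of 5 tested sperm markers 1 fell, spe-6 at -1.94. The part of these shifts was not tested, and in whole animals fewer cells of a type and less RNA per cell cannot be told apart.

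More members passed the test for octopamine than for either strain. In a limma model with strain and octopamine as terms, fitted over all 6 arrays, 24 of the 72 tested members rose and 5 fell at an adjusted p of 0.05. Over all 10251 genes tested, 7.37% rose and 14.7% fell, 22.1% in all. Rises made up 82.8% of the members' calls, where 755 of the 2266 calls over all genes were rises. With the values as deposited they made up 93.9% of the members' calls (31 up, 2 down). In that setting the median change of all genes was -0.01, and the share of all genes called is not given here. The median fitted change of the members was 0.28 on the log2 scale, or 1.21-fold, and that of all genes was -0.06. Of the 47 fbxb genes 17 rose and 1 fell, with a median of 0.31, and of the 25 fbxc genes 7 rose and 4 fell, with a median of 0.18. The 24 that rose were higher with octopamine in all 3 strains, and the 5 that fell were lower in all 3. Of the 24, 6 read below the signal limit for testing on at least 1 array, so their sizes are uncertain. They were fbxb-38, fbxb-48, fbxb-104, fbxb-111, fbxc-20 and fbxc-25. The last read below that limit on all 3 untreated arrays and passed it only through its treated arrays. The model takes the spread of the change between strains as its error. It draws that spread toward that of other genes of like signal, with 2 residual and 6.28 prior degrees of freedom. The p-values and SEs thus rest partly on other genes and not only on the gene's own 3 pairs of arrays. The labels do not describe these pairs as separate cultures. The N2 pair mattered: without it 10 members rose and 1 fell, against 3.14% and 7.11% of all genes. The 9 of the original 24 that rose without N2 were fbxb-19, fbxb-38, fbxb-40, fbxb-42, fbxb-54, fbxb-96, fbxc-25, fbxc-34 and fbxc-51, and the one that fell was fbxc-42.

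The genes in the signal range up to the brightest tested member, at a mean of 234, were looked at on their own. That range passes the median of 114 over all genes tested, while 66 of the 72 members lie below 100. It is therefore not matched to the signals of most members. Among the 6724 genes tested whose mean signal was no higher than that of the brightest tested member, 8.15% rose and 11.6% fell, and the median change was -0.02. When the filter was dropped and all 139 members were tested among 17118 genes, 31 rose and 4 fell, against 4.16% and 8.2% of all genes. The median over the 139 was then 0.16, and that over all 17118 genes was -0.04. The 67 dim members contributed 8 of those rises, with a median of 0.06 over the 67. The strongest of the 8 was fbxb-82, at 0.90 ± 0.09 (log2, SE) with a mean signal of 6.71, where size is uncertain. Others on chromosome III, fbxb-83 at 0.69 ± 0.11 and fbxb-84 at 0.89 ± 0.19, had mean signals of 12.3 and 10.5.

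**Figure D1:**
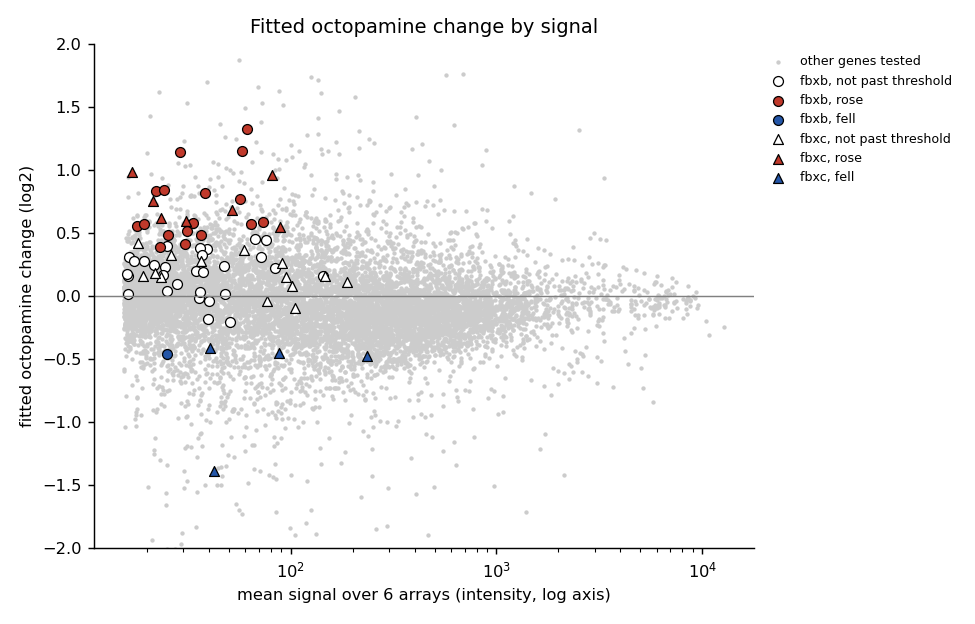
Fitted octopamine change (log2) of each gene tested against its mean signal over the 6 arrays (log axis), with fbxb genes as circles and fbxc genes as triangles, red where they rose, blue where they fell and white where they did not pass the threshold. Most members lie at signals under 100 and above 0 on the vertical axis, and other genes with changes beyond 2 in size are not drawn.

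The strongest rises were those of fbxb-54, fbxb-42 and fbxb-19. The signal of fbxb-54 went from 29.9 to 108 in N2, from 32.7 to 79.4 in daf-16 animals and from 56.7 to 114 in double mutants. Every treated array was above every untreated one, and the double mutant was already the highest of the untreated arrays. Its fitted change was 1.32 ± 0.16 (log2, SE), higher in 3 of 3 strains, with an adjusted p of 0.00146. The probe set of fbxb-54 is one of those marked as matching several transcripts.

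The gene fbxb-42, a few places away on chromosome II, went from 29.9 to 86.2 in N2, from 32.4 to 70.9 in daf-16 animals and from 57.1 to 111 in double mutants. The order of the untreated arrays was again N2, daf-16 and the double mutant, and the groups did not overlap. The fitted change was 1.15 ± 0.13 (adjusted p = 0.0012, 3 of 3 strains higher). For fbxb-19 the signal rose from 19.8 to 51.5 in N2, from 16.7 to 36.8 in daf-16 animals and from 20.9 to 44.4 in double mutants. Here the 3 untreated arrays lay close together, and the 3 ratios, 1.29, 1.10 and 1.04, were close too. The fitted change was 1.14 ± 0.11 (adjusted p = 0.000597, 3 of 3 strains higher).

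Among the fbxc genes, fbxc-25 and fbxc-51 rose most. The signal of fbxc-25 went from 11.05 to 24.2 in N2, from 10.1 to 21.2 in daf-16 animals and from 14.7 to 27.9 in double mutants. All 3 untreated signals lay below the filter's 15.5, so the gene passed the filter only through its treated arrays. The size of its change, 0.98 ± 0.11 (adjusted p = 0.000903, 3 of 3 strains higher), is uncertain. In the same limma model with no filter its adjusted p was 0.000575. For fbxc-51 the signal went from 37.98 to 105 in N2, from 52.3 to 114 in daf-16 animals and from 92.3 to 127 in double mutants. Its ratios were 1.38, 1.09 and 0.41, so the double mutant, which started highest, had the smallest, and the fitted change was 0.96 ± 0.18 (adjusted p = 0.00839, 3 of 3 strains higher). Another fbxc-51 probe set, marked as matching several transcripts, had ratios of 0.44, 0.62 and 0.30.

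The largest fall was that of fbxc-42. Its signal went from 70.1 to 26.7 in N2, from 85.7 to 30.9 in daf-16 animals and from 50.7 to 23.1 in double mutants. The treated arrays all lay below the untreated ones, and the double mutant was the lowest in both treatments. The fitted change was -1.39 ± 0.12 (adjusted p = 0.000341, 3 of 3 strains lower), about as large in size as the strongest rise.

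**Figure D2:**
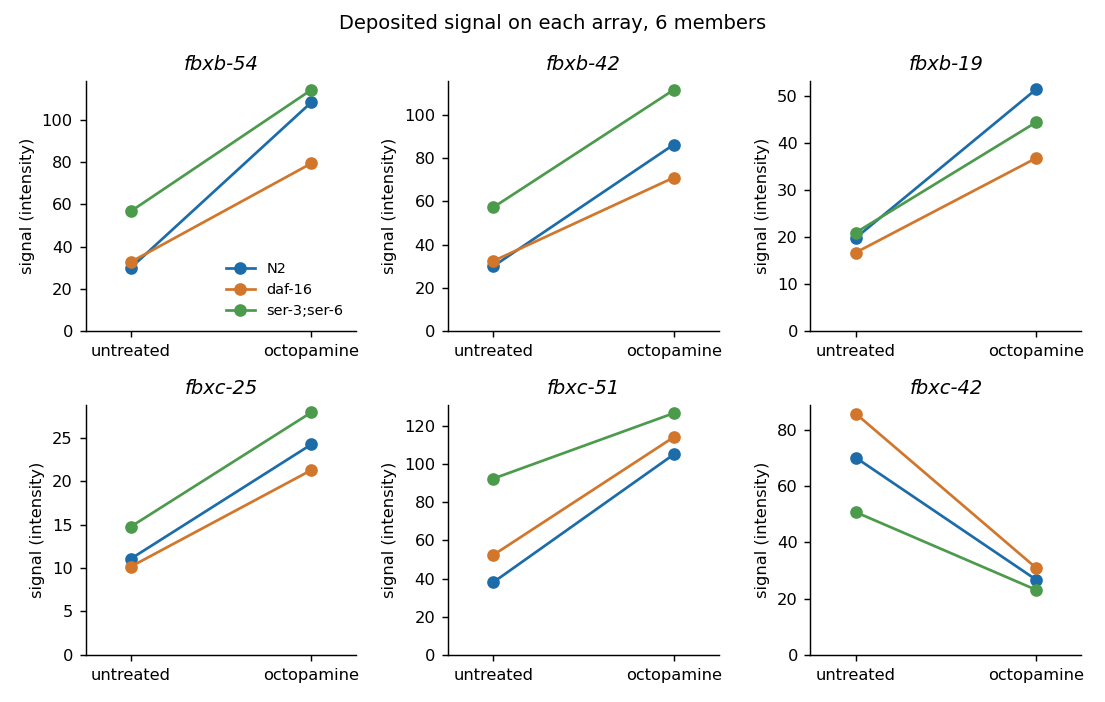
Deposited signal (linear intensity, axes starting at 0) of the 5 members with the highest fitted rise and of fbxc-42, without and with octopamine, 1 line per strain and 1 array per point. The 5 rising genes go up and fbxc-42 goes down in all 3 strains, and for all 5 the double mutant is the highest untreated array.

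The other rising fbxb genes had fitted changes between 0.39 and 0.84. In the upper part of that range were fbxb-38 at 0.84 ± 0.17, fbxb-111 at 0.83 ± 0.17, fbxb-40 at 0.82 ± 0.16 and fbxb-96 at 0.77 ± 0.13. For fbxb-38 the signal went from 13.3 to 36.4 in N2, from 19.8 to 27.9 in daf-16 animals and from 21.5 to 36.1 in double mutants. For fbxb-111 it went from 13.8 to 33.8, from 18.04 to 22.9 and from 17.3 to 35.5 in the same order. Both had their smallest ratio in daf-16, at 0.46 and 0.30, and an N2 untreated signal below the filter's 15.5. The fbxb-40 signal went from 21.8 to 41.5 in N2, from 26.6 to 35.4 in daf-16 animals and from 38.9 to 95.4 in double mutants, where its ratio of 1.246 was the highest of any member in that strain. For fbxb-96 it went from 34.6 to 72.8, from 35.9 to 66.3 and from 62.2 to 89.3, with the smallest ratio, 0.47, in double mutants. The treated and untreated arrays of fbxb-38, fbxb-111 and fbxb-96 did not overlap, while those of fbxb-40 did. The probe sets of fbxb-40 and fbxb-96 are marked as matching several transcripts.

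Between 0.45 and 0.60 lay fbxb-26 at 0.59 ± 0.15, fbxb-43 at 0.58 ± 0.17, fbxb-18 at 0.58 ± 0.12, fbxb-48 at 0.57 ± 0.13, fbxb-104 at 0.56 ± 0.16, fbxb-115 at 0.51 ± 0.13, fbxb-77 at 0.49 ± 0.11 and fbxb-24 at 0.48 ± 0.13. The smallest called rises were fbxb-61 at 0.42 ± 0.11 and fbxb-62 at 0.39 ± 0.11. These genes ranged from even to uneven across strains. In fbxb-77 the signal went from 19.5 to 29.4 in N2, from 20.9 to 28.9 in daf-16 animals and from 22.3 to 33.1 in double mutants, an almost equal step in each. In fbxb-43 it went from 23.5 to 51.3 in N2 but from 28.0 to 31.1 in daf-16 animals, and from 29.5 to 46.0 in double mutants. The fbxb-43 rise in daf-16 was thus small, a log2 ratio of 0.11, and its call was lost without the N2 pair and also without the double mutant pair. A probe set annotated to both fbxb-44 and fbxb-43, which the rule left out, had ratios of 1.33, 1.00 and 0.77.

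The remaining rising fbxc genes were fbxc-20 at 0.75 ± 0.16, fbxc-21 at 0.68 ± 0.13, fbxc-26 at 0.62 ± 0.12, fbxc-34 at 0.60 ± 0.11 and fbxc-18 at 0.55 ± 0.14. The fbxc-20 signal went from 13.04 to 26.2 in N2, from 16.9 to 20.8 in daf-16 animals and from 19.3 to 42.1 in double mutants. Its ratios, 0.92, 0.26 and 1.07, were lowest in daf-16. For fbxc-21 the signal went from 34.9 to 66.9, from 39.9 to 54.1 and from 46.1 to 82.9, with no overlap between treated and untreated arrays. For fbxc-34 it went from 24.4 to 35.9, from 18.7 to 31.6 and from 33.2 to 52.4, with the highest ratio, 0.72, in daf-16. The treated daf-16 array of fbxc-34 was below the untreated double mutant, so its groups overlapped.

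The other falls were smaller. The fbxc-50 signal went from 312 to 236 in N2, from 315 to 232 in daf-16 animals and from 199 to 151 in double mutants, and its change of -0.47 ± 0.09 had an adjusted p of 0.00832 (3 of 3 strains lower). Its probe set is marked as matching several transcripts, and another fbxc-50 probe set, at signals of 13.97 to 18.2, had ratios of -0.03, -0.20 and 0.03. The fall can thus be given for that shared probe set only. The others were fbxb-67 at -0.46 ± 0.12, fbxc-32 at -0.45 ± 0.13, also read by a shared probe set, and the annotated pseudogene fbxc-46 at -0.41 ± 0.12. Their signals fell from 23.7 to 20.3 in N2 for fbxb-67, from 103 to 72.2 for fbxc-32 and from 42.7 to 33.1 for fbxc-46. None of these 3 passed with the values as deposited, while fbxc-42 and fbxc-50 did.

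**Figure D3:**
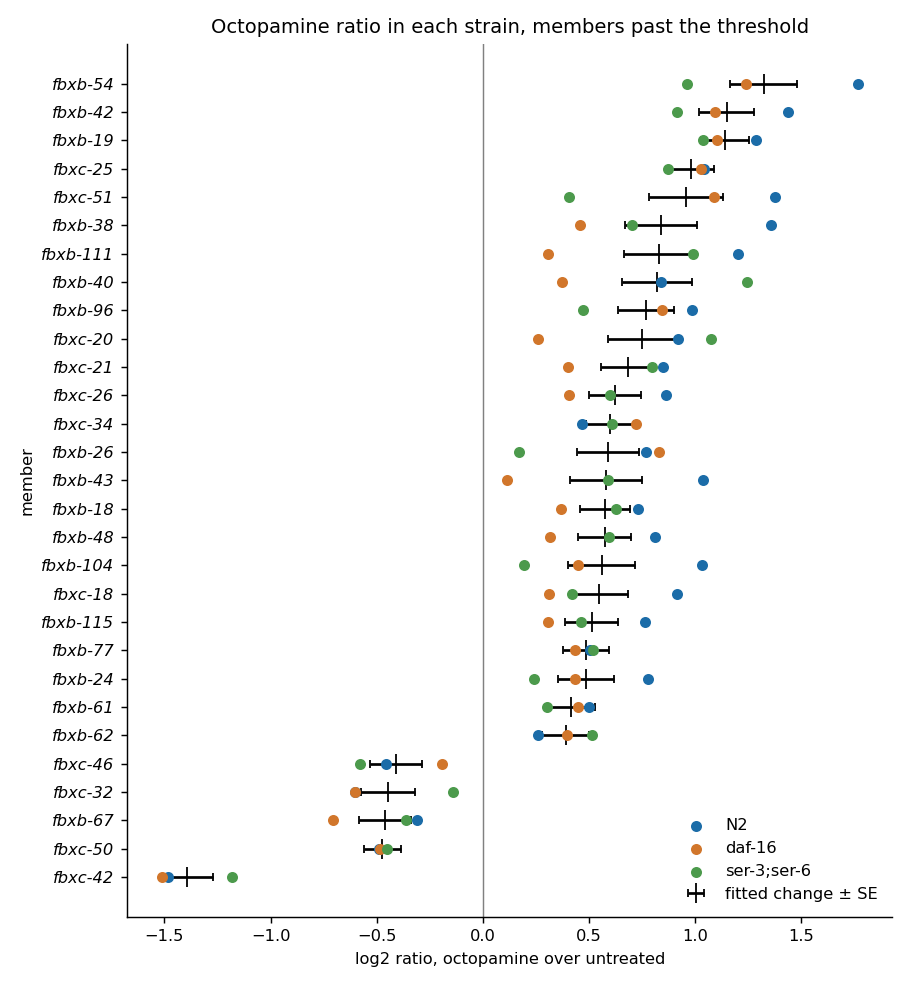
Octopamine ratio (log2, treated over untreated) in each strain as coloured points, and the fitted change with its SE in black, for the 29 members past the threshold. In 24 members all 3 points lie above 0 and in 5 all lie below, and N2 is the rightmost point in many of the rising genes.

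Non-overlap of the arrays gave a similar count. In 23 of the 72 tested members every treated array was above every untreated one, and in 5 the reverse held, against 10.7% and 21.9% of all genes. Of the 24 called rises 16 showed no overlap and of the 5 called falls 4. The 7 with higher treated arrays that did not pass the threshold included fbxb-41 at 0.44 (adjusted p = 0.0505), fbxc-19 at 0.42 (adjusted p = 0.0508) and fbxb-63 at 0.39 (adjusted p = 0.0597), each higher in 3 of 3 strains.

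Within single strains there was no replicate and no test. In N2 the median octopamine ratio of the 72 members was 0.39 on the log2 scale, against -0.06 for all genes tested. It was 0.24 in daf-16, against -0.07, and 0.22 in double mutants, also against -0.07. These medians stayed above 0 with the values as deposited (0.48, 0.28 and 0.27) and after quantile normalization (0.41, 0.25 and 0.28). In N2 26 members had gone up by at least 1.5-fold and 2 had gone down by as much, where 4.4% and 5.52% of all genes were. In daf-16 the counts were 9 and 3, against 2.88% and 4.68%, and in double mutants 16 and 1, against 4.49% and 8.49%. At 2-fold 9 members were higher in N2, 5 in daf-16 and 3 in double mutants, against 1.2%, 0.771% and 0.985%. The 2-fold set of N2 was fbxb-54, fbxb-42, fbxc-51, fbxb-38, fbxb-19, fbxb-111, fbxc-25, fbxb-43 and fbxb-104. That of daf-16 was fbxb-54, fbxb-42, fbxb-19, fbxc-51 and fbxc-25, all within the N2 set. That of double mutants was fbxb-40, fbxc-20 and fbxb-19. In the N2 set, fbxb-38, fbxb-111, fbxc-25 and fbxb-104 had untreated N2 signals of 13.3, 13.8, 11.05 and 11.3, below the filter. The untreated daf-16 signal of fbxc-25, at 10.1, was below the filter too. The sizes of these ratios are therefore uncertain. The gene fbxc-42 was the one member at least 2-fold lower in any strain, and was so in all 3, where 1.45%, 1.14% and 2.17% of all genes were in N2, daf-16 and the double mutant.

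The size of the step differed between strains for some members, and none of these differences could be tested. The ratio was smaller in daf-16 than in N2 for 57 of the 72 members (79.2%, against 53.9% of all genes), and smaller in double mutants than in N2 for 49 (68.1%, against 52.4%). Both shares rest on the same pair of N2 arrays. The widest gaps between N2 and daf-16 were those of fbxb-43, with ratios of 1.04 and 0.11, and fbxb-38, with 1.36 and 0.46. In the other direction fbxb-74 had 0.07 and 0.49 and fbxb-66 had 0.16 and 0.57. Another probe set of fbxb-74 had 0.97 and 0.86, so that gene's probe sets disagreed. Between N2 and the double mutant the widest gaps were those of fbxb-10, with signals of 44.3 and 93.6 in N2 and of 81.2 and 83.6 in double mutants, and of fbxc-51. In fbxb-10 the untreated double mutant was near the treated level of N2. The reverse held for fbxc-19, with ratios of 0.11 and 0.67, and fbxb-65, with 0.12 and 0.63. Between daf-16 and the double mutant the widest gaps were those of fbxb-40 and fbxc-20, lower in daf-16, and of fbxb-20, at 0.44 and -0.25, and fbxc-51, higher in daf-16. The signals of fbxb-20 lay between 12.7 and 18.95, close to the filter.

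Without octopamine most members read higher in double mutants than in N2. The log2 difference was above 0 for 65 of the 72, with a median of 0.31, against -0.05 for all genes tested. At least 1.5-fold higher were 13 members, where 1.85% of all genes were, and 1 was at least 1.5-fold lower, where 3.49% were. The 13 were fbxb-85, fbxc-51, fbxc-52, fbxb-42, fbxb-54, fbxb-26, fbxb-10, fbxb-96, fbxb-40, fbxb-15, fbxc-18, fbxb-38 and fbxb-35. The widest was fbxb-85, at 20.8 in untreated N2, 28.8 in untreated daf-16 and 56.2 in the untreated double mutant, and at 37.4, 37.96 and 52.98 with octopamine. With octopamine the double mutant differed from N2 by a median of 0.14, against -0.07 for all genes, with 4 members at least 1.5-fold higher (2.25% of all genes) and 1 lower (6.72%). All of these differences set a mutant against the same N2 arrays that enter the N2 octopamine ratio.

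**Figure D4:**
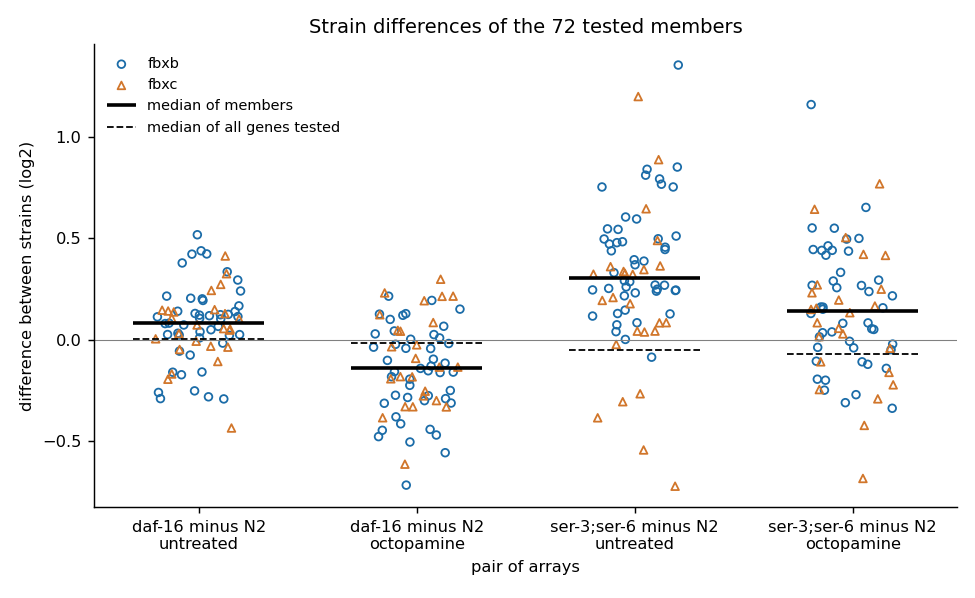
Log2 difference of each mutant from N2 for the 72 tested members, without and with octopamine, with fbxb genes as circles and fbxc genes as triangles. Solid bars mark the median of the members (0.08, -0.14, 0.31 and 0.14 from left to right) and dashed bars the median of all genes tested, and the untreated double mutant stands highest.

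Tested over both treatments, few members differed between the double mutant and N2. In the limma model fbxc-52 was higher, at signals of 105 and 134 in N2 and 205 and 234 in double mutants, with 116 and 125 in daf-16. The 2 double mutant arrays lay above the other 4, and the difference was 0.83 ± 0.12 (adjusted p = 0.0212, higher in 2 of 2 treatments). The fbxc-50 probe set was lower, by -0.71 ± 0.11 (adjusted p = 0.0248, lower in 2 of 2 treatments), while the further fbxc-50 probe set differed by 0.10. These were 1 member up and 1 down of 72, against 0.4% and 2.22% of all genes (2.62% in all). Just short of the threshold lay fbxb-40, at 0.96 ± 0.20 (adjusted p = 0.0502). At an unadjusted p of 0.05, 21 members were higher and 3 lower, where 5.55% and 16% of all genes were. Leaving out either N2 array gave 0 members past the threshold in each direction, while the differences stayed near their size, at 0.75 and 0.91 for fbxc-52 and at -0.69 and -0.72 for fbxc-50. Of 8 body wall muscle markers 4 were lower in double mutants, with summed signals of 1910 and 2015 against 2524 to 3206 in the other strains. Their median difference from N2 was -0.56. Of 6 tested hypodermis markers 1 was lower, with a median of -0.41, and of 5 tested sperm markers 0, also with a median of -0.41. The medians of the other marker lists lay between -0.17 (germline) and 0.16 (embryo). The part of these shifts was not tested.

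No member passed the test for a difference between the daf-16 strain and N2. By limma 0 of the 72 members differed from N2 over both treatments after adjustment, where 0.244% of all genes did (0.039% higher and 0.205% lower), and 1 had an unadjusted p under 0.05, where 6.21% of all genes had one. That one was fbxb-19, at -0.39 ± 0.14 (unadjusted p = 0.023, adjusted p = 0.694, lower in 2 of 2 treatments). The median difference was 0.08 without octopamine and -0.14 with it, against 0.00 and -0.02 for all genes. With octopamine 2 members, fbxb-43 and fbxc-24, were at least 1.5-fold lower in daf-16 than in N2, where 1.34% of all genes were, and 0 were higher, where 0.654% were. Without octopamine 0 members were past 1.5-fold in either direction, where 0.478% of all genes were higher and 1.51% lower.

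The level on each array can also be read from where each member was highest and lowest. After scaling, 37 of the 72 members had their highest value in double mutants with octopamine, where 19.5% of all genes had theirs, and 15 in N2 with octopamine, where 13.6% had. The lowest value was in untreated N2 for 41 members, against 13.4% of all genes, and in untreated daf-16 for 15, against 11.1%. The median signal of the members rose from 29.5 to 37.7 in N2, from 28.9 to 36.4 in daf-16 animals and from 39.0 to 45.2 in double mutants. By that median the untreated double mutant stood above the treated N2 and daf-16 arrays, but by the summed signal of the members it lay, at 3746, below treated N2 at 4019 and above treated daf-16 at 3646.

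The members were also set in their order along the chromosomes, from the RefSeq gene table of assembly WBcel235, used for order only. Of the 139 members 89 lie on chromosome II, of which 48 were tested, 19 rose and 3 fell, with a median change of 0.32. On that chromosome 7.76% of the 1792 genes tested rose and 13.7% fell, with a median of -0.06. On chromosome V 3 of 10 tested members rose and 1 fell, where 8.395% and 14.35% of all genes did. On chromosome IV 1 of 6 rose (5.88% of all genes) and on chromosome III 1 of 2 (4.45%). On chromosome I 1 of 5 fell (16.3% of all genes), and the 1 on chromosome X did not pass. Runs were formed of members with at most 5 other protein-coding genes between them, and 7 runs held at least 3 tested members.

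One run on chromosome II from fbxb-17 to fbxb-11 held 12 members, 7 of them tested, and 6 of these rose. In gene order these were fbxb-26, fbxb-18, fbxb-19, fbxc-21, fbxc-26 and fbxb-48, and the tested member that did not pass was fbxb-17, at -0.01. The run mixes fbxb and fbxc genes, and both classes rose in it. Signals of fbxb-26 went from 49.2 to 89.0 in N2, from 45.4 to 83.0 in daf-16 animals and from 91.25 to 106 in double mutants, those of fbxb-18 from 43.4 to 76.7, from 47.2 to 62.5 and from 67.1 to 107, and those of fbxc-26 from 16.3 to 31.5, from 18.4 to 24.97 and from 21.5 to 33.6. The double mutant was the highest untreated array for each of these 3 genes. The 4 tested genes that lie among them and are not members had a median change of 0.32, with 2 rising and 0 falling.

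A run that begins with fbxb-43 and fbxb-42 and includes fbxb-54 had 3 tested members, which all rose, with a median of 1.15, and the 1 tested gene among them that is not a member rose too, at 0.88. Of its 4 dim members fbxb-49, at 0.68 ± 0.15, and fbxb-46, at 0.50 ± 0.11, passed the threshold when the filter was dropped, and fbxb-51 and fbxb-52 did not. The longest run, from fbxc-51 to fbxb-30, held 20 members, of which 12, all fbxc genes, were tested. Here 3 rose, fbxc-51, fbxc-34 and fbxc-18, and 2 fell, fbxc-32 and fbxc-42, with a median of 0.22. The 9 tested genes among them that are not members had a median of 0.02, with 1 rising and 1 falling. The fall of fbxc-42 stood in gene order after fbxc-40, at 0.28, and fbxc-39, at 0.18, neither past the threshold. A run on chromosome V with fbxb-57, fbxb-62, fbxb-63 and fbxb-61 had changes between 0.38 and 0.42, of which fbxb-62 and fbxb-61 passed. In another run on chromosome V fbxb-115 rose, and fbxb-1, at 0.22, and fbxb-2, at 0.20, did not pass. In the 2 remaining runs, both on chromosome II, no member passed by limma. There fbxb-21, fbxb-20 and fbxb-15 lay at 0.17, 0.16 and 0.16, and fbxb-13, fbxb-10 and fbxc-19 at 0.31, 0.45 and 0.42. Of these 6, 3 had an unadjusted p under 0.05, where 3761 of all 10251 genes tested had one (12.2% rising and 24.5% falling).

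**Figure D5:**
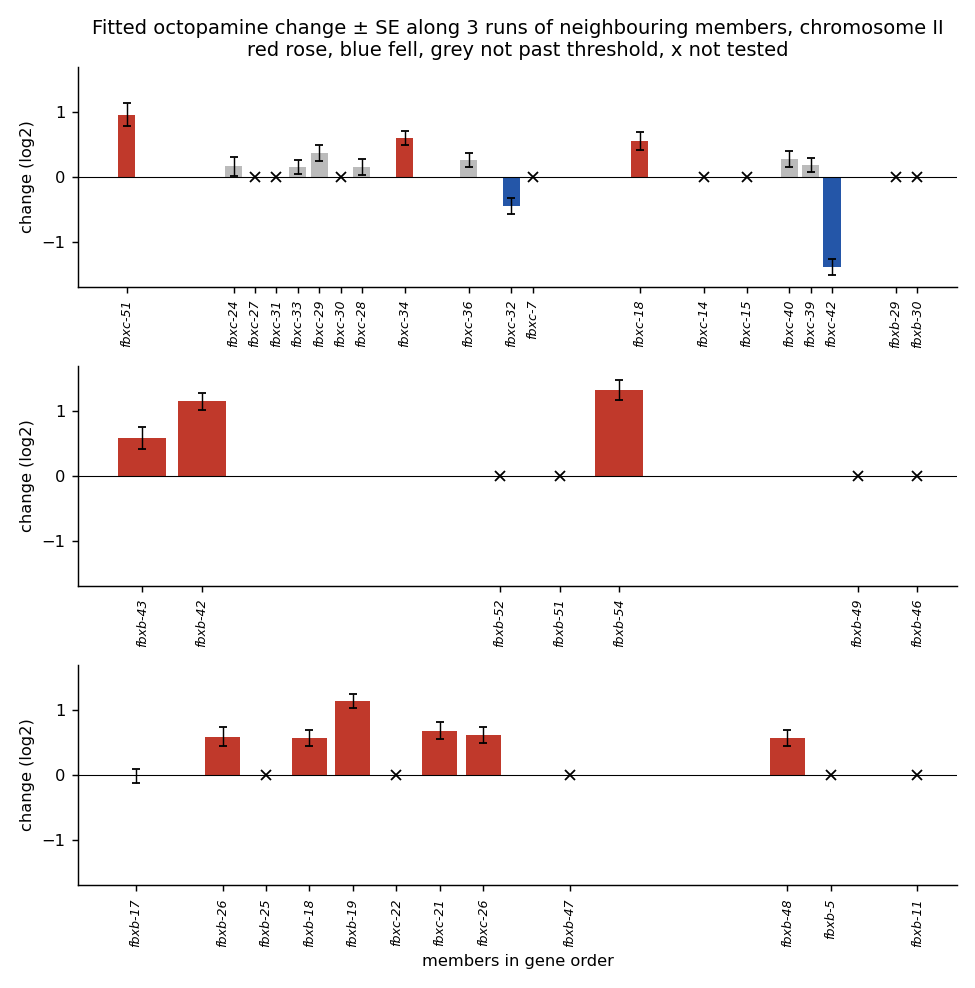
Fitted octopamine change (log2) with its SE for the members of 3 runs on chromosome II, placed by gene order, where gaps are other protein-coding genes. Red bars rose, blue bars fell, grey bars did not pass and crosses mark members below the filter, and 6 of 7 bars in the lowest panel and 3 of 3 in the middle panel are red.

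Some probe sets cover several members at once and were left out by the rule. One annotated to fbxc-1, fbxc-2, fbxc-3, fbxc-4 and fbxc-5 read 112 and 123 in N2, 113 and 95.0 in daf-16 and 130 and 141 in double mutants, with ratios of 0.04, -0.28 and 0.07. One annotated to fbxc-8, fbxc-9, fbxc-10, fbxc-11 and fbxc-12 had ratios of -0.03, 0.21 and -0.20. Neither moved one way in all strains, in contrast to the probe set of fbxb-44 and fbxb-43 above. Without the probe sets marked as shared, 61 members could be tested, of which 21 rose and 3 fell, and 20 of the 21 were among the 24. In that setting the median change of all genes was -0.07, and the share of all genes called is not given here.

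Genes of the ubiquitin ligase machinery were mixed. The list spans several cullins, the Skp1-related linkers, COP9 signalosome subunits and other regulators, so not all are partners of F-box proteins. Of 42 core genes listed, 36 were tested, 6 rose and 5 fell, with a median of 0.02 on the log2 scale, against 7.37% rising and 14.7% falling over all genes. Those that rose were the cullin gene cul-6 at 0.42 ± 0.11 and 5 of the Skp1-related linkers, skr-21 at 0.80 ± 0.12, skr-19 at 0.70 ± 0.08, skr-20 at 0.55 ± 0.10, skr-10 at 0.42 ± 0.12 and skr-7 at 0.35 ± 0.09. Those that fell were the linkers skr-11 at -0.85 ± 0.22 and skr-17 at -0.32 ± 0.10, the cullin gene cul-5 at -0.52 ± 0.09, the COP9 signalosome subunit csn-4 at -0.46 ± 0.09 and ula-1, a subunit of the enzyme that activates the ubiquitin-like protein NED-8, at -0.32 ± 0.09. Of 10 tested F-box genes listed under other names, 0 rose and 3 fell, with a median of -0.16. These were mec-15, needed for touch neuron function, at -0.41 ± 0.10, sel-10, which acts on LIN-12/Notch, at -0.30 ± 0.08 and fog-2, of germline sex determination, at -0.28 ± 0.08. The other 7 did not pass in either direction. Of 62 tested fbxa genes, the third large F-box class, 1 rose and 5 fell, and their ratios had medians of 0.02 (N2), -0.09 (daf-16) and -0.03 (double mutant). Whether the classes differ was not tested.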

How the data were processed

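Total RNA of whole animals was labelled with biotin by a 3' IVT protocol, per the labels' protocols. The authors deposited 1 linear intensity value per probe set and array. The method of probe summary, the scaling and a genome build were not given in the sources used here. Of 22625 probe sets, 77 controls were left out. Of the rest, 20766 had 1 annotated gene, 887 several and 895 none. All 139 members kept their symbol in the current gene table.

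The deposited intensities were log2-transformed without a pseudocount, and array medians, which spanned 0.13, were subtracted. Genes reaching the 40th percentile of mean signal were fitted with limma 3.58.1 (R 4.3.3), with terms for strain and octopamine, a mean-variance trend, 2 residual and 6.28 prior degrees of freedom, and Benjamini-Hochberg adjustment over 10251 genes at 0.05. The script was tested on simulated data. The number of arrays limits the precision.

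The members, lists and tests were chosen with earlier results of these data known, and the gap of 5 genes for runs after values were seen. Named are members past the threshold in a term, those with extreme signals and those with the widest strain gaps, plus others that a count singles out. Protein and promoter sequences were not used here. Python 3.11.15 with pandas 2.3.3 and matplotlib 3.10.9 was used otherwise.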

Additional observations from a re-analysis of the deposited data

How the results depend on the processing

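No paired analysis was possible because each group holds only replicate 1, where pairing by replicate number is meant, while the octopamine test sets treated against untreated arrays within strains through its strain term. With 1 array a group, nothing here measures the spread between cultures, and most members are dim. The count of members rising with octopamine was 24 of 72 tested. With the filter at the 60th percentile it was 9, 8 of them shared, where only 24 members could be tested. It was 10 to 26 without 1 strain's pair, with 9 to 22 shared. The count falling, 5, became 2 with values as deposited, 3 after quantile normalization, 2 with the stricter filter, 3 without shared probe sets, and 1 to 4 without 1 pair, each among the 5. Rises were 82.8% of the calls, against 93.9% with values as deposited and 89.7% after quantile normalization. The median change of all genes was -0.06 in the main fit, -0.01 with values as deposited and 0.00 after quantile normalization. Shares of all genes called for octopamine stand above for the main fit, with no filter and without the N2 pair. For the other settings they are not given, so those counts lack that comparison. Fitted changes of the 29 called members kept their direction under each alternative run, and of these fits 256 kept the call and 39 lost it. For daf-16 against N2 the count was 0 in both directions under each alternative. For the double mutant against N2, 2 members were higher with values as deposited and 2 with no filter, and 0 to 7 without 1 array, while 0 were lower with the mean of all probe sets, 0 without shared probe sets, and 0 to 1 without 1 array. There fbxc-50 reversed to 0.10 without shared probe sets, since another probe set then stands for it. The median ratio fell from 0.39 to 0.21 in N2 and from 0.24 to 0.11 in daf-16 with no filter, and to 0.27 and 0.15 with a pseudocount of 16, which shrinks ratios of dim genes. With the stricter filter the daf-16 median was 0.16. At 1.5-fold upward, the stricter filter left 11 N2, 5 daf-16 and 4 double-mutant members of the 24 it tested. The pseudocount left 14 and 7 for N2 and the double mutant. Downward, N2 had 1 with values as deposited, 1 after quantile normalization, 1 with the stricter filter, 1 with the pseudocount and 1 without shared probe sets, daf-16 had 1 with the stricter filter and 1 with the pseudocount, and the double mutant had 0 with the stricter filter.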
